A study of Mus musculus with 2 samples.

Results

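Histone lysine methyltransferases and demethylases write and remove methyl groups on lysines of the histone tails. The list held 42 genes: enzymes of both kinds, with the core subunits Suz12, Eed and Ash2l and a few SET-domain proteins whose substrates are not histones. A probe set was taken as a member's when its only gene symbol in the platform annotation was that gene or its older name, which gave 105 probe sets for 40 genes out of 18193 named genes. Suv39h1 and Ash1l were not analysed here. The rule used names alone and no measured value, but the list was chosen with earlier results of these data known.

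The RNA came from cerebral cortex of 129/B6 male mice aged 4 weeks. Equal amounts of RNA from 3 mice were pooled for either array: 1 pool from mice with KO in the sample title and 1 pool from wild-type mice. The title does not name the gene, and the KO is read here as one of Gnmt. The sample with KO in its title carries wild-type as its genotype, so its pool is called KO-labelled here, and the allele is not described in the sources used here. With 1 array a group there was no replicate and no test: each value describes these 2 pools, and the number of arrays limits its precision.

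Methylated lysines are read according to their position. Methylation of H3K4 marks promoters and enhancers in use, H3K36 and H3K79 methylation covers transcribed gene bodies, and H3K9 and H3K27 methylation goes with silent chromatin. The methyltransferases take the methyl group from S-adenosylmethionine (SAM), the cofactor that the Gnmt enzyme, glycine N-methyltransferase, also consumes. In the brain, mutations in several of these genes are known causes of intellectual disability.

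At array level the pools differed in ways that accompany every value given here. The median signal was 124.9 units in the KO-labelled pool and 92.0 units in the wild-type pool, although both arrays had been scaled to the same trimmed mean. Gnmt gave 21.5 units in the KO-labelled pool and 10.0 units in the wild-type pool, both under the floor of 64.2 units used here as the lowest signal counted as measured, so it did not check the labels. Cortical neuron markers were measured in both pools for 8 of 8 genes with a probe set, and their summed signals were 85804 units in the KO-labelled pool and 90142 units in the wild-type pool. Within that list Neurod6 was 3.04-fold lower and Tbr1 2.08-fold higher, and the other 6 were within 1.5-fold. Pituitary genes summed to 725 units in the KO-labelled pool against 31335 units in the wild-type pool. Among astrocyte markers 4 of 6 were at least 1.5-fold lower and none higher (sums 35465 KO-labelled and 39933 wild-type units), and among microglia markers 4 of 7 were lower and 1 higher, Cx3cr1 at 3.91-fold (sums 10112 KO-labelled and 10983 wild-type units). Xist was at least 39.6-fold higher in the KO-labelled pool although both pools are labelled male. Fewer cells of a type and less RNA per cell cannot be told apart in these mixtures, and the part of these differences in the members' values was not tested.

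All 40 members were measured on both arrays by their brightest probe set, the one with the highest mean log2 signal, and most lay close together in the pools. Of these, 32 were within 1.5-fold, 4 were at least 1.5-fold higher in the KO-labelled pool (Kdm5b, Kmt2b, Setd1b and Dot1l) and 4 at least 1.5-fold lower (Smyd1, Smyd2, Setd2 and Smyd5). Among all 12244 measured genes, 12.5% were that much higher and 18.2% that much lower, so the members' 10% on either side was no larger than the background. The median log2 ratio of KO-labelled over wild-type signal was 0.15 over the members and -0.06 over all genes, and the SDs of the ratios were 0.53 and 0.64. Methyltransferases with their partners (28 genes) had a median ratio of 0.15, and demethylases (12 genes) 0.12. With quantile normalization the signs turned for the members, to -0.015, and for demethylases, to -0.048, beside -0.13 over all genes. The median of methyltransferases with their partners was then 0.006. Without suffixed probe sets the demethylase median was -0.016. Over all genes the error between 2 probe sets of a gene, as an SD, was 0.58 on the log2 scale or 1.49-fold, which is about the size of the 1.5-fold threshold. Variation among mice, and among pools of mice, is not part of that error.

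**Figure D1:**
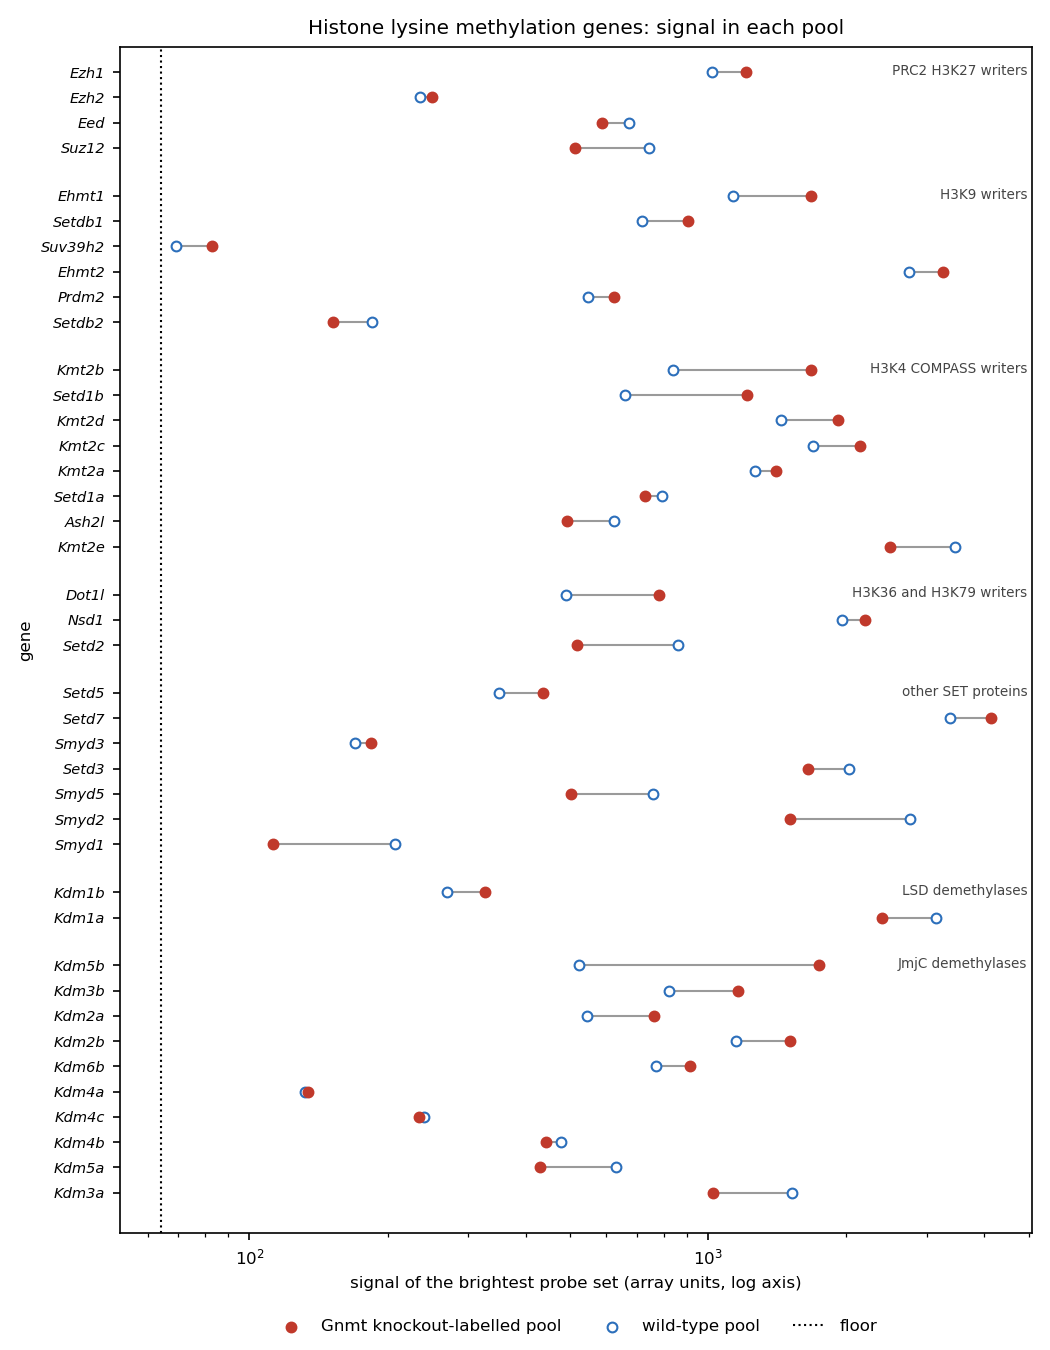
Signal of each member's brightest probe set in array units on a log axis, grouped by role, with filled points for the Gnmt KO-labelled pool, open points for the wild-type pool and a dotted line at the floor of 64.2 units. Each point is 1 array, and the widest gap is that of Kdm5b at 1749 KO-labelled and 523 wild-type units. Signals of different genes come from different probes and are not comparable with each other.

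The promoters that RefSeq gives for members past 1.5-fold are printed to show what regulatory letters the higher and lower genes carry. The windows run from 250 bases before to 50 after a gene's start on GRCm38.p6 and were found for 29 members (38 windows), 6 of them past 1.5-fold. Kdm5b and Dot1l were higher in the KO-labelled pool, and Smyd5, Setd2, Smyd2 and Smyd1 lower. Each is given 5′ to 3′ on the strand of the gene, with capitals at GC boxes, the GGGCGG element bound by Sp factors, on either strand. Of the higher genes, Kdm5b lies at chr1:134559928-134560227 on the plus strand and Dot1l at chr10:80754953-80755252 on the plus strand. Of the lower genes, Smyd5 lies at chr6:85431726-85432025 on the plus strand, Setd2 at chr9:110532347-110532646 on the plus strand, Smyd2 at chr1:189922242-189922541 on the minus strand and Smyd1 at chr6:71262232-71262531 on the minus strand.
Kdm5b: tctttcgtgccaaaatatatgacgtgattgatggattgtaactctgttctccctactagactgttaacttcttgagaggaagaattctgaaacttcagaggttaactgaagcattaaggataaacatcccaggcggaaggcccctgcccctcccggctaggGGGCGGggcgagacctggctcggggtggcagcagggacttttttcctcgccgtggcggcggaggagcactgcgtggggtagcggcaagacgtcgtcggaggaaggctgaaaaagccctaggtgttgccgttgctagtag
Dot1l: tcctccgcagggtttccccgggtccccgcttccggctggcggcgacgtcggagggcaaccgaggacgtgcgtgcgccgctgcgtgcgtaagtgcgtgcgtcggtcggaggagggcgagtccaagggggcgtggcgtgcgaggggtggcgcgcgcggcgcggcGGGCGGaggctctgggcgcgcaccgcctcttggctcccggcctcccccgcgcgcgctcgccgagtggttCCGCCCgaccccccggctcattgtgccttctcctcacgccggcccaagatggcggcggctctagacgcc
Smyd5: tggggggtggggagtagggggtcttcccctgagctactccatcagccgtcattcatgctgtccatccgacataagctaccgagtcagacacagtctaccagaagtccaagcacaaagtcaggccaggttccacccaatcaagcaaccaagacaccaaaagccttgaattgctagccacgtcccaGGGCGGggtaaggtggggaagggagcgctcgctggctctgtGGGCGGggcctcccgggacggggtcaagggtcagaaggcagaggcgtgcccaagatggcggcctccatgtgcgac
Setd2: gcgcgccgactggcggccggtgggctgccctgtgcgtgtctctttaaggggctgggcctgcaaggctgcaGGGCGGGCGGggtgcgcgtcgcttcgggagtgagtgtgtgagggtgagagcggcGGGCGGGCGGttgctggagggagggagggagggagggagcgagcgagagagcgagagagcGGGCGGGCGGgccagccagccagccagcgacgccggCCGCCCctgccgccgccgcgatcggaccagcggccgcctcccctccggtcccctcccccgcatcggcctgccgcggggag
Smyd2: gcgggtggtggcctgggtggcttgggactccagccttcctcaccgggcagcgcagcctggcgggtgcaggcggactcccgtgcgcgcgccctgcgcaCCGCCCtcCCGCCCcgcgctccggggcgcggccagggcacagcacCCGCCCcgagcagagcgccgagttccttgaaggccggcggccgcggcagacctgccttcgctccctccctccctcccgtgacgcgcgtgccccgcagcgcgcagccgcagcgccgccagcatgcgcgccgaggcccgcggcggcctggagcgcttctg
Smyd1: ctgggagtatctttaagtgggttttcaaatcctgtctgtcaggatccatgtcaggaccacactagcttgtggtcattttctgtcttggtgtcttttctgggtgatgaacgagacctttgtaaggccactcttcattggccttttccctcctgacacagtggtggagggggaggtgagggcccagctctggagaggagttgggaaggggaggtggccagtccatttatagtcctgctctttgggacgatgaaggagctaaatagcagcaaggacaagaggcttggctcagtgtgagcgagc

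A GC box was found 1 time in Kdm5b, 2 times in Dot1l, 2 in Smyd5, 7 in Setd2 with overlaps, 3 in Smyd2 and 0 times in Smyd1. Over the members 65.8% of windows held one, against 35.7% of all 32851 promoter windows. The median number of CG dinucleotides was 28.5 in member windows and 7 in all windows. The windows shown held 17 in Kdm5b, 49 in Dot1l, 13 in Smyd5, 38 in Setd2, 43 in Smyd2 and 3 in Smyd1. On either strand, the CCAAT box spelled CCAAT was found in Smyd5 and Smyd1, and the TATA box spelled TATAAA in Smyd1. Neither the E-box spelled CACGTG nor the cyclic AMP element spelled TGACGTCA was found in the windows shown. The shares of member windows that held these were 39.5% for the CCAAT box, 2.63% for the TATA box, 7.89% for the E-box and 2.63% for the cyclic AMP element. In all windows they were 37.4%, 13.6%, 7.15% and 1.79% in the same order. A match is a description of the letters, not a binding site.

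The catalytic and core genes of Polycomb repressive complex 2, which methylates H3K27, all lay within 1.5-fold by brightest probe sets. So did 8485 of all 12244 genes. Ezh2, a catalytic subunit of dividing cells, gave 251 units in the KO-labelled pool and 235 units in the wild-type pool from its single probe set. Ezh1, the catalytic subunit that prevails in mature neurons, gave 1208 KO-labelled and 1019 wild-type units, a log2 ratio of 0.23. The other probe sets of Ezh1 had ratios below 0, at -0.41, -0.59 and -0.75, the last pair past 1.5-fold, with signals of 84.5 to 121 units in the KO-labelled pool and 127 to 159 units in the wild-type pool. Suz12, a core subunit, gave 513 KO-labelled and 743 wild-type units, a ratio of -0.55, and its other measured probe sets were also below 0, at -0.29, -0.47 and -0.21. Eed, the subunit that binds the finished mark, had -0.21 and 0.02. A further Suz12 probe set went the other way, at 83.1 KO-labelled and 62.9 wild-type units, the wild-type signal being just under the floor. No gene of this complex with several probe sets had 1 direction over all of them.

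Genes that write H3K9 methylation had 5 of 6 brightest ratios above 0 and none past 1.5-fold. Of all 12244 genes, 5615 had a ratio above 0 and 8485 were within 1.5-fold. Ehmt1, which with Ehmt2 forms the enzyme of H3K9 mono- and dimethylation, gave 1678 units in the KO-labelled pool and 1135 units in the wild-type pool, 1.47-fold higher and just short of the threshold. Ehmt2 gave 3257 KO-labelled and 2743 wild-type units by its brightest probe set, a ratio of 0.24. Its second probe set gave 105 KO-labelled and 308 wild-type units, a ratio of -1.56, so the probe sets of this gene went opposite ways. Setdb1, which trimethylates H3K9 at repeats, had a ratio of 0.32, and Setdb2 one of -0.30. Suv39h2, a trimethylating enzyme of heterochromatin, was near the floor at 83.0 KO-labelled and 69.3 wild-type units, and a further probe set was over the floor in wild-type RNA only (6.3 KO-labelled and 108 wild-type units). Prdm2, a PR-domain member, had ratios of 0.17, 1.62 and -0.47 over 3 probe sets, the highest from signals of 540.5 KO-labelled and 175 wild-type units.

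Of the 8 genes of H3K4 methylation 2 were at least 1.5-fold higher in the KO-labelled pool and none lower, against 12.5% and 18.2% of all genes. Kmt2b, whose enzyme acts at promoters, gave 1679 units there and 840 units in the wild-type pool, 1.98-fold higher, and 445 of the 12244 genes had a higher ratio. It had 1 probe set, so no second reading exists. Setd1b, the catalytic subunit of a SET1 complex, gave 1215 KO-labelled and 658.5 wild-type units, 1.83-fold higher, with its other probe set at 0.35. Both probe sets of Setd1b were thus higher. Its sister subunit Setd1a was at -0.13, and its other probe set gave 72.3 KO-labelled and 3.9 wild-type units, at least 1.12-fold higher.

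Kmt2c and Kmt2d, which place H3K4 monomethylation at enhancers, had brightest ratios of 0.33 and 0.40. Kmt2c gave 2148 units in the KO-labelled pool and 1696 units in the wild-type pool by that probe set, with 1118 KO-labelled and 605 wild-type units by the second and 435 KO-labelled and 262 wild-type units by the third. All of its measured probe sets were higher in the KO-labelled pool, and the dimmer ones were past 1.5-fold, at 0.87 and 0.72. Kmt2a, best known for keeping homeobox genes active, had probe sets of 1406 KO-labelled and 1264 wild-type units (0.14) and 1529 KO-labelled and 823 wild-type units (0.88). Kmt2c and Kmt2d each had a further probe set over the floor in the KO-labelled pool only, at least 1.78-fold and 1.59-fold higher. Ash2l, the core subunit shared by these complexes, was at -0.35, and its other probe set gave 168 KO-labelled and 15.9 wild-type units, at least 2.60-fold higher, so its probe sets pointed opposite ways.

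Kmt2e, a SET-domain protein with no established histone activity, was the only member with measured probe sets past 1.5-fold in both directions. Its brightest gave 2497 units in the KO-labelled pool and 3456 units in the wild-type pool, a ratio of -0.48. Another gave 1185 KO-labelled and 664 wild-type units, a ratio of 0.82, while a pair made for several transcript forms of the gene gave -0.70 and -0.92. The dimmest were higher in the KO-labelled pool, at 0.39 and, with 111 KO-labelled and 3.6 wild-type units, at least 1.72-fold. For this gene the sign depended on which probe set was read.

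The enzymes of gene bodies split. Dot1l, the H3K79 methyltransferase, which has no SET domain, gave 779.8 units in the KO-labelled pool and 489.9 units in the wild-type pool, 1.58-fold higher, with its other probe set at 0.33. Setd2, which trimethylates H3K36 behind RNA polymerase II, gave 519 KO-labelled and 859 wild-type units from its only probe set, 1.67-fold lower. Nsd1, which dimethylates H3K36, was level by its brightest probe set (2194 KO-labelled and 1962 wild-type units, 0.15), and 4.45-fold higher by a dimmer one (411 KO-labelled and 91.7 wild-type units). By brightest probe sets Setd2 was the only one of these 3 genes below 0.

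Of the 7 remaining SET proteins 3 were at least 1.5-fold lower in the KO-labelled pool and none higher, against 18.2% and 12.5% of all genes. The 3 belong to the SMYD family, whose members also methylate proteins outside chromatin. Smyd2 gave 1511 units in the KO-labelled pool and 2752 units in the wild-type pool, 1.84-fold lower, from its single probe set. Smyd5 gave 503.5 KO-labelled and 758 wild-type units, 1.52-fold lower, and -0.38 by its second probe set. Smyd1, a gene of heart and skeletal muscle, gave 113 KO-labelled and 208 wild-type units, 1.86-fold lower, by a probe set whose suffix marks possible binding of other transcripts. Its second gave 154 KO-labelled and 125 wild-type units, a ratio of 0.29, and another gave 114 KO-labelled and 33.0 wild-type units, at least 1.76-fold higher. The lower call of Smyd1 thus went against its other probe sets over the floor, and it held under 5 of 8 alternative settings, as that of Smyd5 did under 4 of 9. Smyd3 was at 0.11.

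Setd3, a histidine methyltransferase of actin, had the highest lower bound of the list. Its brightest probe set gave 1654 units in the KO-labelled pool and 2029 units in the wild-type pool, a ratio of -0.31. A second probe set gave 753 KO-labelled and 34.6 wild-type units, which is at least 11.6-fold higher in the KO-labelled pool, the wild-type signal being under the floor. The probe sets of this gene therefore pointed opposite ways. Setd5 and Setd7, an H3K4 monomethyltransferase, had 0.30 and 0.28.

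Among demethylases, Kdm5b was the member furthest from 0. Kdm5b, a JmjC enzyme that removes H3K4 di- and trimethylation, gave 1749 units in the KO-labelled pool and 523 units in the wild-type pool, 3.32-fold higher, a ratio exceeded by 68 of the 12244 genes. Its second probe set gave 582.5 KO-labelled and 471 wild-type units, a ratio of 0.29. The other 2 were over the floor in the KO-labelled pool only, at 357 KO-labelled and 34.8 wild-type units (at least 5.51-fold higher) and at 125 KO-labelled and 1.7 wild-type units (at least 1.92-fold higher). All 4 probe sets were higher in the KO-labelled pool, by amounts that ranged from 1.23-fold to at least 5.51-fold. The second probe set has a suffix that marks possible binding of several genes' transcripts.

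Its paralog Kdm5a did not share that direction by its brightest probe set. Kdm5a gave 429.5 units in the KO-labelled pool and 629 units in the wild-type pool, 1.48-fold lower and just inside the threshold. Dimmer probe sets gave 227 KO-labelled and 139 wild-type units (0.70) and 343 KO-labelled and 70.7 wild-type units (2.27), and another 80.1 KO-labelled and 2.0 wild-type units, at least 1.24-fold higher. The X-linked relative Kdm5c, not a member, had a brightest ratio of 0.24 and a median of 1.22 over 6 measured probe sets, all above 0. Another X-linked demethylase outside the list, Kdm6a, had 0.24 by its brightest probe set and 1.46 by its other measured one. Kdm5c and Kdm6a are known to escape X inactivation in female cells, and Xist was higher in the same pool. Of other X-linked escape genes, Ddx3x gave 9506 KO-labelled and 5950.5 wild-type units by its brightest probe set, 1.58-fold higher (0.66). Its measured probe sets ran from -0.19 to 1.20. Eif2s3x was at -0.09 by its brightest probe set, with a median of -0.37. The Y-linked Eif2s3y, Uty and Kdm5d were measured in both pools, at 0.16, -0.22 and -0.85. The part of any such difference in the ratios of Kdm5c and Kdm6a was not tested.

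The other JmjC and LSD genes were within 1.5-fold by brightest probe sets, as were 8485 of all 12244 genes. Kdm2a, an H3K36 demethylase that binds unmethylated CpG DNA, gave 762 units in the KO-labelled pool and 544 units in the wild-type pool (0.47), with further probe sets at 0.41 and 2.58, the last from 472 KO-labelled and 78.3 wild-type units, and 2 more at least 1.24-fold and 1.31-fold higher. Its relative Kdm2b had 0.38 and -0.15. Of the H3K9 demethylases, Kdm3a gave 1024 KO-labelled and 1521 wild-type units, 1.497-fold lower and the nearest to the threshold without passing it, and Kdm3b gave 1161 KO-labelled and 821 wild-type units, a ratio of 0.49, with a dim second probe set at least 1.09-fold higher. These close relatives lay on opposite sides of 0. Kdm4a, Kdm4b and Kdm4c, which act on trimethylated H3K9 and H3K36, were the JmjC genes nearest to equal, at 0.01, -0.12 and -0.04. Kdm6b, an inducible H3K27 demethylase, had 911 KO-labelled and 770.1 wild-type units (0.23) by its brightest probe set, and 358 KO-labelled and 178 wild-type units and 131 KO-labelled and 70.3 wild-type units by dimmer ones, all higher in the KO-labelled pool. Kdm1a, the flavin-dependent H3K4 demethylase of the CoREST complex, was at -0.40 and -0.52, and Kdm1b at 0.26.

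**Figure D2:**
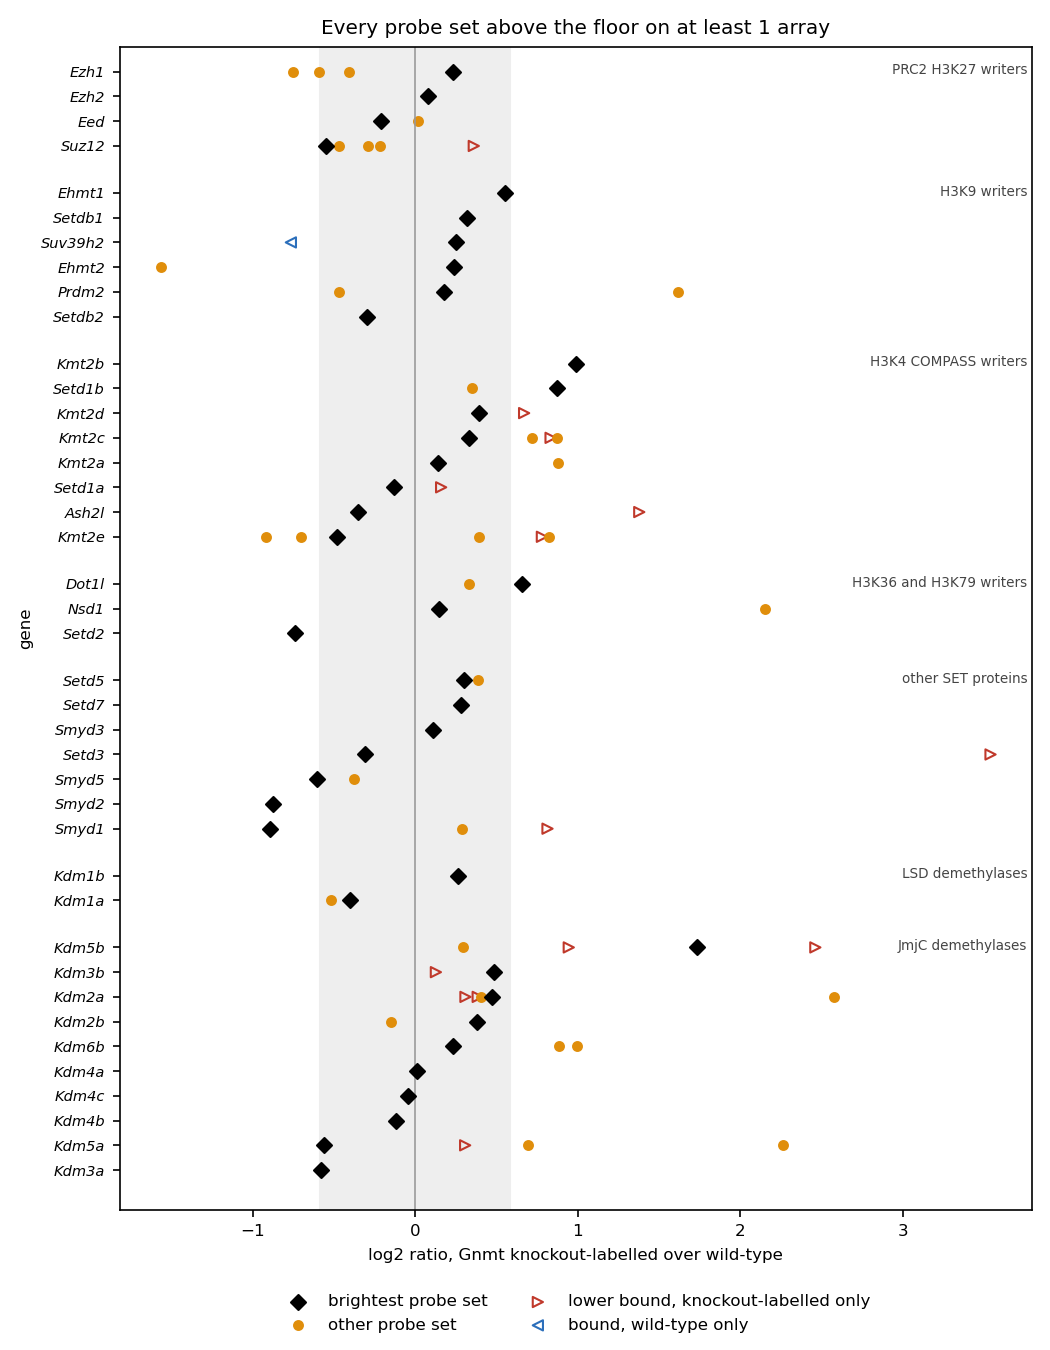
Log2 ratio of KO-labelled over wild-type signal for every member probe set above the floor on at least 1 array, grouped by role. Diamonds are brightest probe sets, circles other measured ones, and open triangles bounds where 1 pool was under the floor; the band marks 1.5-fold. Open triangles for the KO-labelled pool alone number 14 and for the wild-type pool alone 1.

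Reading every probe set gave more higher values than reading 1 probe set a gene, both for the members and over all genes. By brightest probe sets the share higher was 10% of members and 12.5% of all genes. Of 72 measured member probe sets, 15 were at least 1.5-fold higher in the KO-labelled pool and 9 lower (20.8% and 12.5%), against 16.5% and 18.1% of all 20967 measured probe sets with 1 gene. The scaling of the arrays changed this split: with quantile normalization 13 were higher and 14 lower, and over all probe sets 14% and 22.2%. A further 14 of the 105 member probe sets (13.3%) reached the floor in the KO-labelled pool only and 1 (0.952%) in the wild-type pool only, where all 34945 probe sets with 1 gene gave 7.48% for the KO-labelled pool only and 4.07% for the wild-type pool only. With quantile normalization before the floor the members had 11 such probe sets for the KO-labelled pool and 4 for the wild-type pool, and the shares over all probe sets were 4.72% and 7.05% in that order. With the floor at the 25th percentile the members gave 8.57% and 4.76%, against 7.94% and 5.51% over all probe sets. At the 60th percentile these were 7.62% and 2.86%, against 5.02% and 3.40%. The 14 probe sets belonged to 12 genes, so they are not independent of each other.

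Of the 15 higher probe sets, 11 were not the brightest of their gene. Among 32 measured probe sets other than the brightest, 11 were at least 1.5-fold higher and 5 lower (34.4% and 15.6%), against 22.1% and 18% of such probe sets over all genes. On the demethylase side, 5 of 9 were higher and none lower, and on the methyltransferase side 6 of 23 were higher and 5 lower. Probe sets of 1 gene are not independent of each other, and the 5 on the demethylase side came from Kdm2a, Kdm5a and Kdm6b alone. Of the 20 members with 2 or more measured probe sets, 13 had the same sign in the brightest pair, as had 3582 of 5375 such genes. The error of 1 probe set, the SD of the pair's difference divided by the square root of 2, was 0.68 for members and 0.58 for all genes.

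The source of the probe sequence went along with the direction, both in the members and over all genes. Probe sets whose annotated accession is an expressed sequence tag (EST), a short single-pass read of a cDNA, made up 67 of the 105, and those with an mRNA or RefSeq accession 30. Among member probe sets other than the brightest, the median ratio was 0.38 over 21 measured EST probe sets and -0.28 over 8 mRNA probe sets. Over all genes these medians were 0.13 and -0.13. Of 43 such EST probe sets of members, 11 (25.6%) were over the floor in the KO-labelled pool only, against 13.9% over all genes. For such mRNA probe sets the figures were 1 of 15 (6.67%) and 7.31%. The split by accession was read at the main floor and scaling only. Suffixed and unsuffixed probe sets also differed, with medians of -0.40 and 0.25 in the members and -0.10 and 0.001 over all genes. Where EST probes lie in a transcript was not tested.

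**Figure D3:**
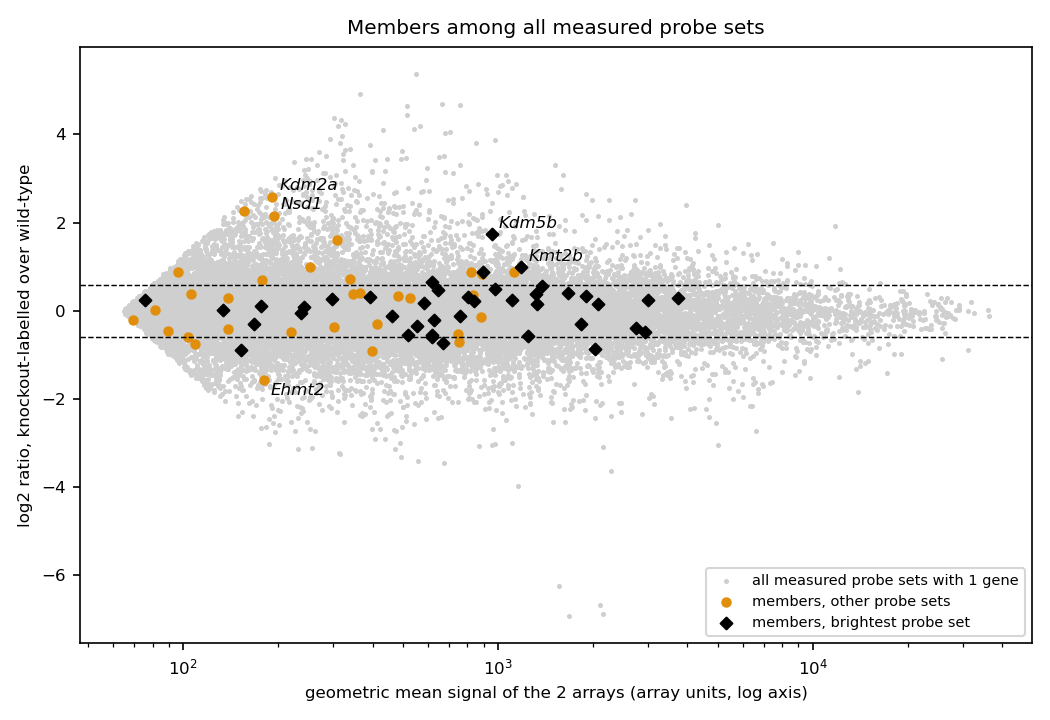
Log2 ratio of KO-labelled over wild-type signal against the geometric mean signal of the 2 arrays, on a log axis. Grey points are all 20967 measured probe sets with 1 gene, black diamonds the members' brightest probe sets and orange circles their others; dashed lines mark 1.5-fold. The highest member ratios, from dimmer probe sets of Kdm2a (2.58), Kdm5a (2.27) and Nsd1 (2.15), lie at low signal, and the sloping left edge is set by the floor.

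Genes that work with the members showed the same mixture, set beside 12.5% of all genes at least 1.5-fold higher and 18.2% lower. Of 16 partner subunits of the PRC2 and H3K4 complexes, 2 were at least 1.5-fold higher in the KO-labelled pool and 1 lower, with a median ratio of 0.05. Hcfc1, a host cell factor of H3K4 complexes, gave 2989 units in the KO-labelled pool and 1676 units in the wild-type pool (0.82), Phf1, a PRC2 accessory protein, 348 KO-labelled and 216 wild-type units (0.68), and Phf19, another, 102 KO-labelled and 184 wild-type units (-0.86). Over its 3 measured probe sets Hcfc1 ran from -0.24 to 0.82, with a median of 0.74. The shared core genes Wdr5, Rbbp5 and Dpy30 were level, at 0.17, 0.06 and -0.05.

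Readers of the marks had 1 of 16 genes higher and 3 lower, with a median of -0.08. The lower ones were the H3K4 trimethylation readers Ing1 (760 units in the KO-labelled pool and 1515 units in the wild-type pool, -1.01) and Ing2 (-0.95), and Mphosph8, an H3K9 methylation reader (-0.76). Cdyl2, a chromodomain gene, was the higher one at 0.65, with its other measured probe set at -0.02. Among LSD1 corepressor genes 1 of 9 was higher and 2 lower: Rcor3 had 0.75, and the deacetylase genes Hdac1 and Hdac2 had -0.67 and -0.69.

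Of measured methyltransferase genes outside the list 2 of 12 were higher and 0 lower, and of such demethylase genes 1 of 12 on each side. The shares over all genes were 12.5% and 18.2%. Mecom, a methyltransferase gene, reached the floor in the wild-type pool only (50.2 KO-labelled and 131.9 wild-type units), at least 2.07-fold lower in the KO-labelled pool. Prdm16 gave 717 units in the KO-labelled pool and 148 units in the wild-type pool, a ratio of 2.27, with its other measured probe set at -0.01. Setd4 gave 492 KO-labelled and 156 wild-type units, a ratio of 1.64, and 0.99 by another probe set. The demethylase gene Phf8 had 0.66 and the Y-linked Kdm5d -0.85. In SAM supply 1 of 6 measured genes was higher, Pemt at 0.67, and 0 lower; the adenosyltransferase subunit gene Mat2b was level at 2914 KO-labelled and 2920 wild-type units, and Ahcy, whose enzyme clears the product of methyl transfer, was at -0.14.

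**Figure D4:**
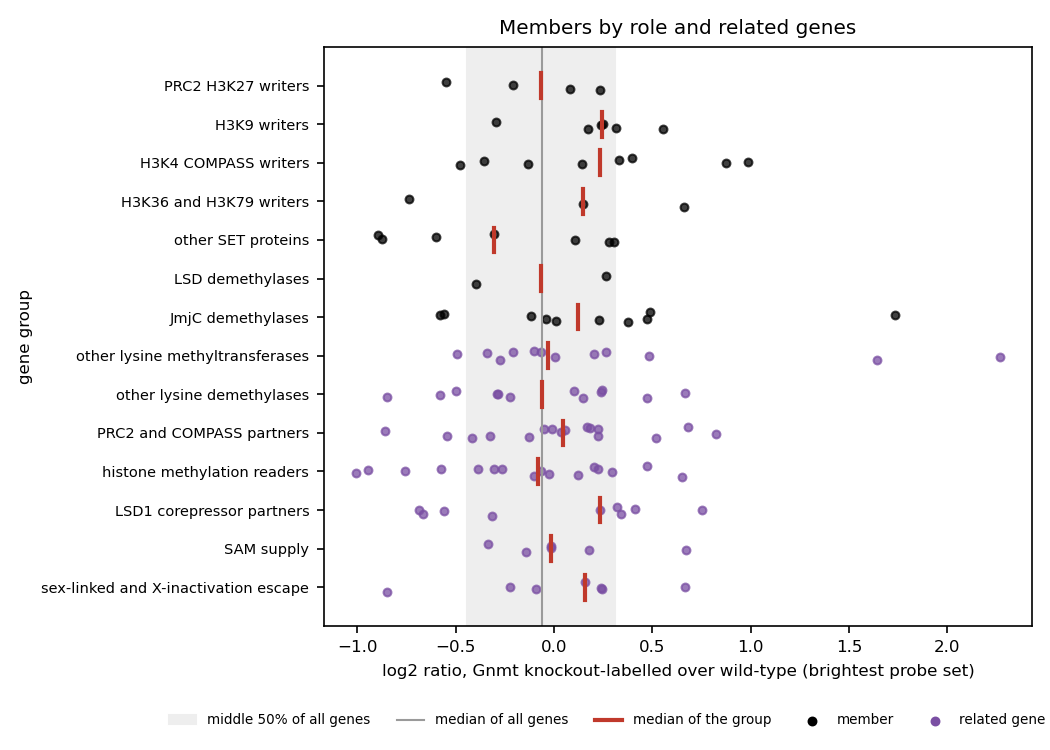
Log2 ratio of KO-labelled over wild-type signal of each gene's brightest probe set, for members by role (black) and related genes (purple), with a red bar at the median of each group. The band holds the middle 50% of all genes and the grey line their median of -0.06. Group medians lie between -0.31 for the other SET proteins and 0.24 for the H3K9 and the H3K4 writers.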

How the data were processed

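The authors deposited 1 linear intensity per probe set and array, named GCOS (Affymetrix software) per the submitters' processing notes, and pooled RNA of 3 mice per array, per the series' design text. Neither its version nor how it computed signals is given in the sources used here, and no detection calls were used. With the top and bottom 2% of signals removed, each array averaged 500.0 units. Depth has no counterpart on these arrays, so their number limits precision.

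Control probe sets were dropped, which left 45037. The annotation gives 34945 of them a single gene symbol, and 34741 took the current symbol of the RefSeq table (GRCm38.p6). The floor was the 40th percentile of the signals left. Log2 ratios of measured probe sets were centred on their median, 0.01. Members were named by symbol; 1 probe set naming Kdm6b and another gene was left out. Each member's brightest probe set is given. All probe sets over the floor on at least 1 array are given where it, or the median over measured probe sets, was past 1.5-fold, or where measured probe sets were past 1.5-fold both ways; probe sets under the floor on both arrays are left out. Other probe sets were chosen after their values were seen. In related lists up to 3 genes past 1.5-fold at either end are named, and some level ones. Members and lists were chosen with earlier results of these data known. Calculations were tested on simulated arrays with less noise than the probe set error found here, by medians over groups of genes. That test does not show how reliable the call of a single gene is. Alternatives covered floor, scaling and choice of probe set; those on probe set counts, and the split by accession, were chosen after seeing the data. Python 3.11.15, numpy 2.4.6, pandas 2.3.3, statsmodels 0.14.6 and matplotlib 3.10.9 were used.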

Additional observations from a re-analysis of the deposited data

How the results depend on the processing

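Kmt2b, Setd2 and Smyd2 stayed past 1.5-fold in their direction under every alternative that gave them a value (8, 8 and 7). Each has a single probe set, so alternatives on the choice of probe set left its value unchanged or gave none. Kdm5b and Setd1b stayed past 1.5-fold under 8 of 9, the exception being the second brightest probe set. Dot1l held under 6 of 9, Smyd1 under 5 of 8 and Smyd5 under 4 of 9. Smyd1 turned to 0.29 both by its second brightest probe set and without suffixed probe sets. The count of members at least 1.5-fold higher, 4 as reported, was 7 by the median of all probe sets and 7 by the second brightest, which 20 members had. The shares were 17.5% and 35% of members with a value, against 12.6% and 19.4% of all genes. The count lower, 4 as reported, was 7 with the floor at the 25th percentile, 2 at the 60th, 8 with none, 1 by the second brightest and 2 without suffixed probe sets. In that order the shares were 17.5%, 5.71%, 20%, 5% and 5.41% of members with a value. Over all genes the shares lower were 20.6%, 15.2%, 27.2%, 19.1% and 18.1%. With loess 5 were higher and 3 lower (12.5% and 7.5%, against 13.1% and 17.4% of all genes). With quantile normalization the members' median was -0.015, that of demethylases -0.048 and that of all genes -0.13. The demethylase median was -0.016 without suffixed probe sets. The alternatives for probe set counts were chosen after seeing the data. Member probe sets at least 1.5-fold higher, 15 as reported, numbered 9 with the floor at the 60th percentile (18%, against 14.6% of all measured ones). Those lower, 9 as reported, numbered 4 at that floor, 14 with quantile normalization and 4 without suffixed probe sets. The shares were 8%, 19.4% and 7.02% of measured member probe sets, against 15.3%, 22.2% and 17.2% of all measured ones. Probe sets over the floor in the KO-labelled pool only, 14 as reported, numbered 9 and 8 with the floor at the 25th and 60th percentiles. The shares were 8.57% and 7.62% of member probe sets, against 7.94% and 5.02% of all probe sets. Those in the wild-type pool only, 1 as reported, numbered 5 and 3 at these floors and 4 with quantile normalization. The shares were 4.76%, 2.86% and 3.81% of member probe sets, against 5.51%, 3.40% and 7.05% of all probe sets. The cause of these shifts was not tested. No paired analysis was possible because each group has 1 array.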
